A study of Mus musculus with 14 samples.

Results

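Complement is a set of plasma and membrane proteins that tags targets, recruits leukocytes and perforates membranes. The classical and lectin pathways start from bound antibody or surface sugars and cleave C4 and C2. The alternative pathway runs on C3 and factor B, and all of them cleave C3 and then C5, after which C6, C7, C8 and C9 assemble into the membrane attack complex. The liver, mainly its hepatocytes, makes most of the plasma components, and C3 and factor B are long known as acute phase proteins, whose synthesis rises in inflammation.

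The 34 complement components and regulators described here were taken by gene symbol, and all 34 were among the 17656 genes with a value in every file. They comprised 5 genes of the classical pathway, 7 of the lectin pathway, 4 of C3 and the alternative pathway, 6 of the terminal pathway, 5 fluid-phase regulators, 3 membrane regulators and 4 receptors. RNA was sequenced from whole livers of mice 8 weeks of age on the C57BL/6 background. WT mice and mice labelled as Ythdf1 knockout (KO), which lack the m6A reader Ythdf1 in every cell type, received concanavalin A (ConA, a plant lectin that activates T cells and causes hepatitis, at 8 mg/kg) or saline by tail vein, and livers were taken after 8 h. Each saline group held 3 mice (WT saline, KO saline) and each ConA group 4 mice (WT ConA, KO ConA).

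The deposited values were TPM, the abundance of transcripts as a share of the library, corrected for their length, and the read depth behind them is unknown. The Ythdf1 gene itself had 12.03 to 13.9 TPM in WT saline, 18.7 to 25.6 in WT ConA, 18.4 to 20.8 in KO saline and 15.5 to 26.2 in KO ConA. The group means were thus not lower in the libraries labelled KO than in WT libraries of the same treatment. By the study's targeting scheme the CRISPR/Cas9 knockout removes a stretch around a single exon and leaves the rest of the gene, so a whole-gene value does not check the labels. The livers carried hepatocyte RNA throughout, and the 12 hepatocyte markers summed to 159311 to 179907 TPM in WT saline, 79903 to 104916 in WT ConA, 160873 to 188512 in KO saline and 71502 to 83985 in KO ConA. In bulk tissue, fewer cells of a type and less RNA per cell cannot be told apart. WT saline replicates 2 and 3 were nearly identical, with a median absolute log2 ratio of 0.0644 over 5277 well-expressed genes against 0.115 to 0.401 in the other pairs within a group. Where it changes the call of a member, the value with the pair treated as a single mouse, by their mean, is also given. Counts of cell type markers are given without it. WT ConA replicate 3 and KO ConA replicate 3 stood furthest from the other libraries of their groups.

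In WT saline livers the members differed widely in TPM. C3, the protein on which all pathways converge, was the most abundant, with 3088, 4005 and 3903 TPM in the 3 mice. It was followed by Vtn, encoding vitronectin, at 2662 to 3006 TPM, and Clu, encoding clusterin, at 1042 to 1292 TPM, whose proteins both bind the forming attack complex in plasma. By their means, there were 3 members above 1000 TPM, 15 between 100 and 1000, 8 between 10 and 100, 3 between 1 and 10 and 5 below 1. The lowest were the receptors C3ar1, C5ar1 and Itgam, the membrane regulator Cd55, and Cfd, encoding factor D, which is made mainly by fat and was listed at 0 in 2 of these 3 libraries. All 34 together took 1.33 to 1.43% of the library in WT saline, 1.72 to 1.84% in WT ConA, 1.1 to 1.23% in KO saline and 1.59 to 1.79% in KO ConA, so both ConA groups lay above both saline groups.

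Several members lie side by side in the genome (GRCm38.p6, the build of the submitters' notes and of the RefSeq gene table). Cfb, at chr17:34856374-34862514, and C2, at chr17:34862602-34882100, are 87 bases apart, and C8b and C8a on chromosome 4 are 11130 bases apart. C1rl, C1ra and C1s1 stand in a row on chromosome 6. Promoter sequences from the RefSeq table were matched for 25 of the 34 members, in 27 entries. The 5 below are the 250 bases before the transcript start that the RefSeq promoter table gives for C3, which rose most in TPM after ConA, of C9 and Masp2, which fell, and of C4bp and Hc, which moved in opposite directions in KO mice. Capitals mark a match, on either strand, to TTGCNNAA (C/EBP type) in C3 and C9, to GTTAATNAT (HNF1 type) in C4bp and Hc, to GGGNNNTTC (the start of NF-kB type sites) near the end of the C9 window, and to CTGGGAA (the core of interleukin-6 response elements) overlapping TTCNNNGAA (a STAT-type palindrome) in Masp2. The first transcribed bases of 21 of the 27 entries matched the beginning of a GENCODE transcript. For Masp2 and Hc the start used lies 7922 and 7094 bases inside the whole gene as RefSeq lists it, and 10 and 26 bases from the nearest start of a GENCODE transcript. For C4bp it lies 39 bases inside the gene, and for C3 and C9 it is the outer start. The windows are chr17:57228137-57228386, minus strand (C3), chr15:6445096-6445345, plus strand (C9), chr4:148602294-148602543, plus strand (Masp2), chr1:130661619-130661868, minus strand (C4bp) and chr2:35061413-35061662, minus strand (Hc).
C3: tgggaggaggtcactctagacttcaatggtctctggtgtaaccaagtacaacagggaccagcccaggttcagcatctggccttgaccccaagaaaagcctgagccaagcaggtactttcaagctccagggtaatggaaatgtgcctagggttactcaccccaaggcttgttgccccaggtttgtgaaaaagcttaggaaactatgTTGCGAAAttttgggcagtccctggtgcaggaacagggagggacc
C9: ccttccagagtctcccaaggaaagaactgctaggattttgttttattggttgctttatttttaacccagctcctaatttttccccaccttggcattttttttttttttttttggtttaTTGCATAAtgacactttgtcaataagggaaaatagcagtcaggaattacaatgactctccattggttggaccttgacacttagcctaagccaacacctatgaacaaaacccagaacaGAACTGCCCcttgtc
Masp2: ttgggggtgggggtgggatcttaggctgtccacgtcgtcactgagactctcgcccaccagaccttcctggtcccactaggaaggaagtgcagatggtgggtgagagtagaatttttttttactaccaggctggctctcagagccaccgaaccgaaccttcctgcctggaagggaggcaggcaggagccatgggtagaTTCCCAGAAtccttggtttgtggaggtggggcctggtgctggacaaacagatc
C4bp: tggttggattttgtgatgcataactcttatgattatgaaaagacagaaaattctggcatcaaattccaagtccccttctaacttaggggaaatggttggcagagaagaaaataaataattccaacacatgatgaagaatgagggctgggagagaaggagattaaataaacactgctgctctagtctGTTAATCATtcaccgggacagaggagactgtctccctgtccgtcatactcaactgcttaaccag
Hc: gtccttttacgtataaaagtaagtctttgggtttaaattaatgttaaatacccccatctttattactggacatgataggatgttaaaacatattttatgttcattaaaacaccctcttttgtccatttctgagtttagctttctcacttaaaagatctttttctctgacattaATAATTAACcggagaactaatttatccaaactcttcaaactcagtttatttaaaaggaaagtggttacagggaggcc
TTGCNNAA was found in 4 of the 27 member entries (C1rl, C1s1, C3 and C9), against 9.56% of 32851 promoter windows of the same length. It lay 45 to 38 bases before the start used for C3 and 132 to 125 bases before that of C9, whose levels went opposite ways after ConA. GTTAATNAT was found in C4bp and Hc, 64 to 56 and 77 to 69 bases before the transcript starts used, and in 0.737% of all windows. CTGGGAA was found in C1ra, Fcna and Masp2 and in 9.1% of all windows, TTCNNNGAA in C8a, Colec11 and Masp2 and in 7.02%, and GGGNNNTTC in C3ar1, C9 and Cd55 and in 11.8%. A match is a run of letters and was not tested as a binding site.

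Differences between groups were tested with limma on log2(TPM + 1) over all genes with a TPM of 1 or more in a number of libraries no smaller than the size of the smaller group. A member is said to have risen, fallen or differed where its Benjamini-Hochberg adjusted p over all genes tested was under 0.05, and all log2 fold changes are on this log2(TPM + 1) scale, given as ± SE. The fold change understates the change of genes near 1 TPM. The comparison of ConA with saline within each genotype asks how the liver's complement genes respond to the hepatitis. In WT mice 31 members were tested, and 9 rose and 8 fell. Of all 10768 genes tested, 53.0% passed, 22.0% higher and 31.0% lower, and the members' share was close to that of all genes. In KO mice 32 members were tested, and 12 rose and 11 fell, against 33.9% higher and 30.7% lower of 10988 genes (64.6% in all). The rises in both genotypes include C5ar1 and Itgam, which reached the TPM filter only through the ConA libraries and therefore had to differ. Itgb2 needed the ConA libraries to pass it in KO mice, so its rise there was favoured in advance. The median log2 fold change of the tested members was 0.02 in WT and -0.05 in KO mice, beside -0.07 and 0.07 for all genes tested. With WT saline replicates 2 and 3 averaged, 6 members rose and 8 fell in WT mice, against 17.1% and 24.9% of 10985 genes (42.1% in all). Single libraries also decided some calls. In WT mice those of C1ra, C4b, Cfp and Hc were lost without WT saline replicate 1, those of C1ra, C1s1, C4b, Hc and Serping1 without WT saline replicate 3, those of C1ra, C1s1 and C4b without WT saline replicate 2, and that of C1ra without any single one of WT ConA replicates 1, 2 and 4. In KO mice Mbl2, Fcna and Cfi each lost their call without several single libraries, and Hc without KO saline replicate 2. The shares of all genes given above are also the background of the counts by role and by cell type below.

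**Figure D1:**
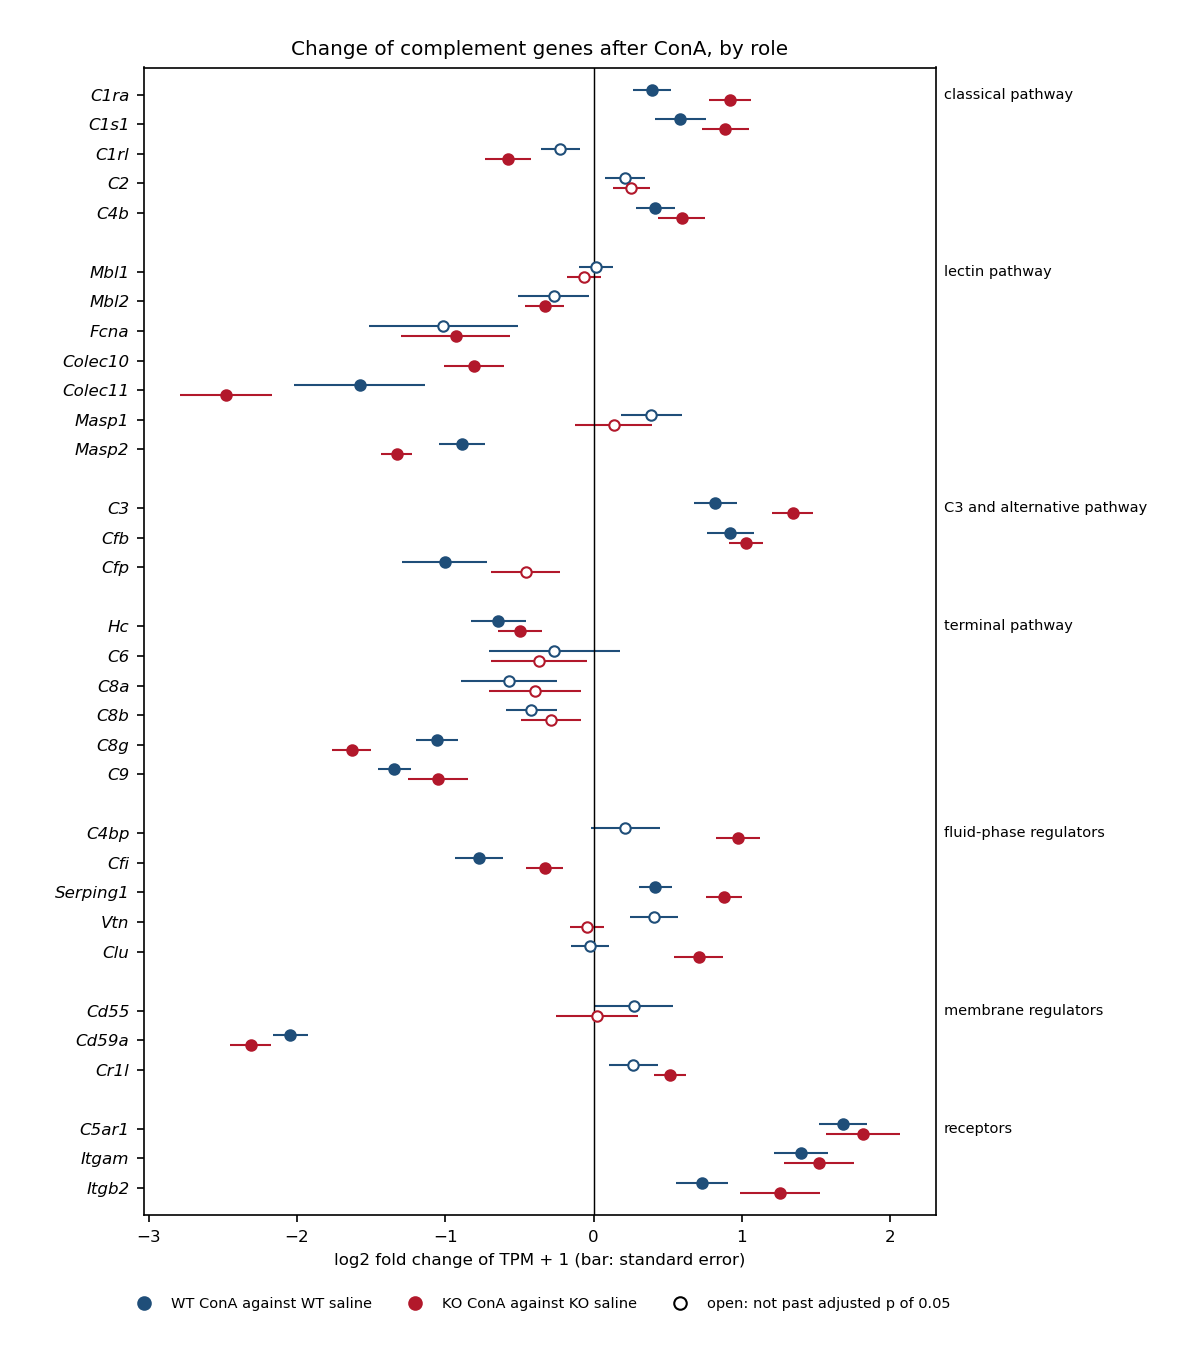
Log2 fold change of TPM + 1 after ConA (horizontal axis, bar for the standard error) of every tested member, grouped by role, in WT (blue) and KO (red) mice, with filled points where the adjusted p was under 0.05. C1ra, C1s1, C4b, C3, Cfb, Serping1 and the receptors lie to the right, while Colec11, Masp2, C8g, C9 and Cd59a lie to the left in both genotypes.

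Of the 5 classical pathway genes, C1ra, C1s1 and C4b rose in both genotypes, and C1rl fell in KO mice. C1ra and C1s1 encode the paired proteases of the C1 complex, which cleave C4 and C2. C1s1 measured 238, 241 and 239.9 TPM in WT saline and 407, 426, 263 and 369 TPM in WT ConA. In KO mice it measured 170.0, 157 and 185 TPM with saline and 357, 378, 239.9 and 308 TPM with ConA. Every ConA mouse lay above every saline mouse of its genotype, and WT ConA replicate 3 and KO ConA replicate 3 were the lowest of their groups. The log2 fold change was 0.59 ± 0.17 in WT (adjusted p = 0.0161) and 0.89 ± 0.16 in KO mice (adjusted p = 0.000502).

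C1ra moved likewise, from 167, 156 and 152 to 217, 227, 172 and 221 TPM in WT mice. In KO mice it went from 96.8, 81.7 and 117 TPM with saline to 196, 210.0, 164 and 175 TPM with ConA. Its log2 fold change was 0.39 ± 0.13 (adjusted p = 0.0299) in WT and 0.92 ± 0.14 (adjusted p = 0.000211) in KO mice, and the groups did not overlap in either genotype. C4b, encoding the C4 that both C1 and the lectin proteases cleave, went from 257, 255 and 246 to 328, 308, 314 and 410.4 TPM in WT mice. In KO mice it went from 191, 209 and 168 to 328, 339, 223 and 267 TPM. C4b rose in both, by 0.42 (adjusted p = 0.0233) and 0.59 (adjusted p = 0.00645) on the log2 scale. In WT mice these calls were lost with WT saline replicates 2 and 3 averaged, at adjusted p = 0.0536 for C1s1, 0.109 for C1ra and 0.0823 for C4b.

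C2, the protease subunit of the classical C3 convertase, did not pass in either genotype. It measured 65.8, 63.7 and 59.1 TPM in WT saline, 74.7, 75.6, 60.7 and 82.05 TPM in WT ConA, 43.8, 41.96 and 55.00 TPM in KO saline and 58.2, 55.6, 56.3 and 52.9 TPM in KO ConA. C1rl encodes a protease related to C1r. It fell in KO mice, from 68.5–88.8 to 43.5–65.5 TPM (log2 fold change -0.58 ± 0.15, adjusted p = 0.00682), while in WT mice it had 81.1 to 85.2 TPM with saline and 58.9 to 78.9 TPM with ConA (adjusted p = 0.179). Reads of 50 bases cannot always place these genes. Of all 50-base stretches of the transcript, those found in no other gene made up 49.2% for C1ra, 61% for C1s1, 64.8% for C4b and 42% for C2, the rest being shared with C1rb, C1s2, C4a and a transcript reading through C2 and Cfb. The 3 paralogs were listed at low levels (C1rb 0 to 0.38, C1s2 0 to 0.11 and C4a 1.06 to 1.64 TPM in WT ConA).

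No member of the lectin pathway rose, and 2 of 6 tested fell in WT and 5 of 7 in KO mice. Over all genes tested 31.0% fell in WT and 30.7% in KO mice, so the lectin share in WT was near that of all genes. Mbl1 and Mbl2 encode the mannose-binding lectins, which recognise microbial sugars. Mbl1 had 418 to 495 TPM in WT saline, 425 to 477 in WT ConA, 428 to 468 in KO saline and 378 to 470.1 in KO ConA, and all 4 ranges overlapped. Mbl2, the more abundant at 834 to 1009.8 TPM in WT saline, passed the test in KO mice alone (log2 fold change -0.33 ± 0.13, adjusted p = 0.0453), and that call was lost when each library was rescaled to a common median (adjusted p = 0.0933).

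Masp2, encoding the protease that acts for the lectins as C1s does for C1, fell clearly. It measured 189.6, 191 and 184 TPM in WT saline and 184, 184 and 190.0 TPM in KO saline, a spread of a few per cent. After ConA it measured 102, 96.9, 128 and 82.6 TPM in WT and 76.1, 73.4, 78.4 and 66.7 TPM in KO mice, below every saline mouse. On the log2 scale the change was -0.89 ± 0.15 (adjusted p = 0.00103) in WT and -1.33 ± 0.10 (adjusted p = 1.45e-06) in KO mice. The ratio of Mbl2 to Masp2 TPM went from 4.4–5.49 to 5.69–10.1 in WT mice and from 4.31–5.85 to 8.89–11.5 in KO mice. Of the 50-base stretches of Masp2, 42.8% were found in no other gene, the rest being shared with Tardbp. Masp1, which activates Masp2, had 8.72 to 13.00 TPM in WT saline, 9.68 to 16.04 in WT ConA, 8.72 to 12.7 in KO saline and 7.36 to 18.4 in KO ConA and passed in neither genotype.

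Colec11, encoding collectin CL-K1, fell the most of the lectin genes. It measured 20.9, 5.21 and 6.03 TPM in WT saline and 4.63, 1.97, 1.74 and 1.58 TPM in WT ConA. KO saline livers held 34.4, 21.3 and 28.6 TPM and KO ConA livers 5.11, 4.55, 6.53 and 1.7 TPM. The groups did not overlap within a genotype, although WT saline replicate 1 stood far above the other saline mice of its genotype. This was a log2 fold change of -1.58 ± 0.44 (adjusted p = 0.0136) in WT and -2.48 ± 0.31 (adjusted p = 4.34e-05) in KO mice. Its partner Colec10 lay at 0.64 to 3.09 TPM before and 0.36 to 1.28 TPM after ConA in WT mice, where too few libraries reached a TPM of 1 for a test. In KO mice Colec10 fell from 2.7–4.02 to 0.86–1.99 TPM (log2 fold change -0.81 ± 0.20, adjusted p = 0.0047). Fcna, the ficolin of liver macrophages, went from a KO saline range of 16.6 to 28.6 to a KO ConA range of 5.03 to 20.3 TPM, which overlapped (log2 fold change -0.93 ± 0.37, adjusted p = 0.0437, lost with rescaled libraries at 0.0523) and from 10.2–22.8 to 2.47–17.9 TPM in WT mice (adjusted p = 0.121).

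Colec11, Colec10 and Fcna are set here beside markers of stellate cells and of Kupffer cells, the liver's resident macrophages. The 8 Kupffer cell markers summed to 63.9 to 120.3 TPM in WT saline, 7.01 to 35.2 in WT ConA, 28.6 to 61.5 in KO saline and 6.78 to 24.4 in KO ConA. Of the 8, 7 fell in WT and 4 in KO mice, against 31.0% and 30.7% of all genes tested. The 7 stellate cell markers summed to 29.5 to 117 TPM in WT saline, 56.3 to 133 in WT ConA, 138 to 227 in KO saline and 96.3 to 186 in KO ConA. Of these 7, none fell in WT mice, where 4 were tested, and 3 fell in KO mice. WT saline replicate 1, with the highest Colec11 of its group, also had the highest stellate sum. In WT ConA 1 Kupffer and 2 stellate markers were under 1 TPM in every library, no marker of either list was listed at 0 in every library of a group, and their part in the result was not tested. All 8 Kupffer markers were tested in WT mice. The 1 under 1 TPM in WT ConA thus passed the filter only through the saline libraries, which favoured a fall.

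Of the C3 and alternative pathway genes, C3 and Cfb rose in both genotypes, and Cfp fell in WT mice. C3 measured 3088, 4005 and 3903 TPM in WT saline, 6524, 7275, 5529.9 and 6520.0 TPM in WT ConA, 2493, 2702 and 3162 TPM in KO saline and 7721, 7313, 6660.1 and 6516 TPM in KO ConA. Every ConA mouse was above every saline mouse. The log2 fold change was 0.82 ± 0.15 (adjusted p = 0.00124) in WT and 1.34 ± 0.14 (adjusted p = 1.05e-05) in KO mice. Its window of promoter sequence is the first printed above.

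Cfb encodes factor B, the protease subunit of the alternative C3 convertase. It measured 684, 819 and 807 TPM in WT saline and 1280.3, 1517, 1266 and 1825 TPM in WT ConA. The KO values were 649, 696 and 658 TPM with saline and 1475, 1460.3, 1263 and 1267 TPM with ConA, so the saline and ConA mice did not overlap. On the log2 scale the change was 0.92 ± 0.16 (adjusted p = 0.00094) in WT and 1.03 ± 0.11 (adjusted p = 1.74e-05) in KO mice. C2 is the classical counterpart of factor B and the next gene on the chromosome, and the ratio of Cfb to C2 TPM was 10.4 to 13.7 in WT saline, 17.1 to 22.2 in WT ConA, 11.97 to 16.6 in KO saline and 22.4 to 26.3 in KO ConA. Because a transcript reading through both genes shares their sequence, 18.6% of the 50-base stretches were particular to Cfb, and how such reads were divided is not known.

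Cfp encodes properdin, which stabilises the alternative convertase and comes largely from myeloid cells. It fell in WT mice, from 10.9–13.00 to 3.65–10.3 TPM (log2 fold change -1.003 ± 0.29, adjusted p = 0.0151), while in KO mice it had 6.84 to 11.6 TPM with saline and 4.46 to 8.48 with ConA (adjusted p = 0.107). Cfd stayed at or under 0.56 TPM in all 14 libraries and was not tested.

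Of the 6 terminal genes, Hc, C8g and C9 fell in both genotypes, the other 3 did not pass in either and none rose. Over all genes tested 31.0% fell in WT and 30.7% in KO mice. C9 forms the ring of the membrane pore. It measured 169.8, 150.4 and 161 TPM in WT saline and 65.8, 63.2, 60.7 and 60.9 TPM in WT ConA, a tight group. In KO mice it measured 97.2, 63.6 and 64.1 TPM with saline and 40.4, 44.5, 27.3 and 30.6 TPM with ConA. The 4 groups thus ran from WT saline at the top to KO ConA at the bottom, with KO saline and WT ConA overlapping in the middle. The log2 fold change after ConA was -1.34 ± 0.11 (adjusted p = 1.33e-05) in WT and -1.05 ± 0.20 (adjusted p = 0.000886) in KO mice.

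C8 is built of 3 chains from 3 genes. C8g, encoding the gamma chain, a lipocalin, measured 715, 710.2 and 739 TPM in WT saline and 386, 328, 403 and 282 TPM in WT ConA. KO saline livers held 859.6, 860.4 and 744 TPM and KO ConA livers 240.3, 233, 313 and 277 TPM. C8g fell by 1.06 on the log2 scale in WT (adjusted p = 0.000254) and fell by 1.63 in KO mice (adjusted p = 1.64e-06).

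The neighbouring genes C8a and C8b encode the alpha and beta chains, both of the perforin-like family. C8a measured 216, 106 and 102 TPM in WT saline, 67.5, 88.1, 71.8 and 147 TPM in WT ConA, 70.7, 49.9 and 59.9 TPM in KO saline and 63.8, 62.9, 22.1 and 46.1 TPM in KO ConA. C8b measured 166, 110.2 and 110.0 TPM in WT saline, 103, 93.2, 80.9 and 100.1 TPM in WT ConA, 79.5, 46.7 and 69.8 TPM in KO saline and 60.6, 63.1, 39.98 and 48.1 TPM in KO ConA. Neither passed after ConA, at adjusted p = 0.169 and 0.065 in WT and 0.284 and 0.237 in KO mice, and WT saline replicate 1 was the highest library for both. The TPM of the 2 genes stayed near each other, with a C8a to C8b ratio of 0.925 to 1.3 in WT saline, 0.653 to 1.47 in WT ConA, 0.857 to 1.07 in KO saline and 0.553 to 1.05 in KO ConA. The ratio of C8g to C8b was 4.32 to 6.72 in WT saline, 2.82 to 4.98 in WT ConA, 10.6 to 18.4 in KO saline and 3.69 to 7.83 in KO ConA. KO saline thus stood above the other groups in this ratio, with no overlap.

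Hc encodes C5, whose cleavage starts the attack complex and releases C5a. It measured 139, 124 and 131 TPM in WT saline, 95.2, 80.9, 60.2 and 105 TPM in WT ConA, 91.9, 106 and 89.2 TPM in KO saline and 74.4, 78.1, 52.1 and 67.7 TPM in KO ConA. Hc fell in both genotypes, with a log2 fold change of -0.64 ± 0.19 (adjusted p = 0.0157) in WT and -0.50 ± 0.15 (adjusted p = 0.013) in KO mice. The ratio of C3 to Hc TPM went from 22.3–32.3 to 62.1–91.9 in WT mice and from 25.6–35.4 to 93.7–128 in KO mice. C6, which joins C5b first, was scarce, with 4.49 to 15.1 TPM in WT saline, 3.07 to 10.9 in WT ConA, 1.3 to 3.52 in KO saline and 0.61 to 2.94 in KO ConA, and it did not pass after ConA in either genotype. The 6 terminal genes together had 1206 to 1419.9 TPM in WT saline, 660.2 to 720.4 in WT ConA, 1029 to 1202 in KO saline and 456 to 484 in KO ConA, so that each ConA group lay below both saline groups. The 12 hepatocyte markers went down beside them, with 8 of 12 falling and 1 rising in WT and 9 falling and 2 rising in KO mice. Of all genes, 31.0% fell and 22.0% rose in WT, and 30.7% fell and 33.9% rose in KO mice. The part of the hepatocyte markers in the result was not tested.

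**Figure D2:**
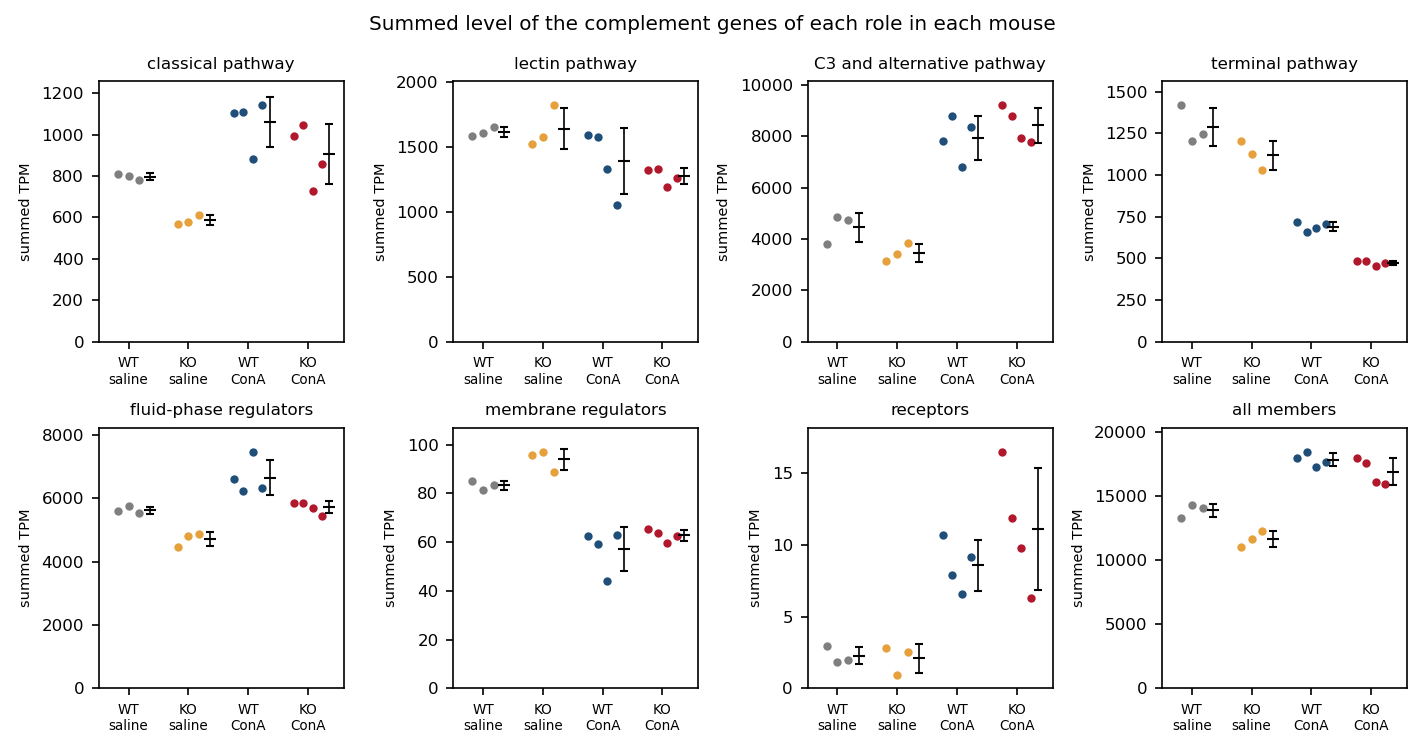
Summed TPM (vertical axis, from 0) of the members of each role and of all 34 members in each liver, with 1 point per mouse and the mean ± SD beside each group. The C3 and alternative pathway genes are highest in the 2 ConA groups, the terminal genes are lowest in KO ConA (456 to 484 TPM), and all KO ConA mice lie below all WT ConA mice there.

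Of the 5 fluid-phase regulators, Serping1 rose and Cfi fell in both genotypes, C4bp and Clu rose in KO mice, and Vtn did not pass. Serping1 encodes C1 inhibitor, which dissociates C1r and C1s and blocks the MASPs. It measured 677, 740.1 and 709 TPM in WT saline, 914, 1005, 998 and 869 TPM in WT ConA, 469.8, 496 and 554 TPM in KO saline and 1044, 953, 914 and 823 TPM in KO ConA. Serping1 rose in both genotypes without overlap, with a log2 fold change of 0.42 ± 0.11 (adjusted p = 0.0114) in WT and 0.88 ± 0.12 (adjusted p = 8.55e-05) in KO mice.

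Cfi, encoding factor I, the protease that inactivates C3b and C4b, fell while its substrates' genes rose. It measured 532, 537 and 546 TPM in WT saline, 357, 307, 240.0 and 374 TPM in WT ConA, 335, 350.4 and 340.4 TPM in KO saline and 299, 310.4, 234 and 252 TPM in KO ConA. In log2 fold change it was -0.77 ± 0.16 (adjusted p = 0.00302) in WT and -0.33 ± 0.12 (adjusted p = 0.0374) in KO mice. The KO value was the less firm, since the call was lost in 8 of 15 alternative analyses. The ratio of Cfb to Cfi TPM, an activating against an inactivating protease of C3, was 1.29 to 1.53 in WT saline, 3.59 to 5.28 in WT ConA, 1.93 to 1.99 in KO saline and 4.7 to 5.4 in KO ConA.

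C4bp encodes the C4b-binding protein, a cofactor of factor I. It measured 332, 371 and 377 TPM in WT saline, 438, 533, 257 and 505 TPM in WT ConA, 219, 234 and 232 TPM in KO saline and 521, 523, 345 and 432 TPM in KO ConA. It rose in KO mice (log2 fold change 0.97 ± 0.15, adjusted p = 0.000198). In WT mice the value was 0.21 ± 0.23 (adjusted p = 0.473), where WT ConA replicate 3 lay below all 3 saline mice and the other 3 lay above them. Without WT ConA replicate 3 the WT value was 0.45 (adjusted p = 0.0083). Clu rose in KO mice, by 0.71 ± 0.17 on the log2 scale (adjusted p = 0.0033), its ranges being 640.4 to 1094 TPM with saline and 1277 to 1388 TPM with ConA. In WT mice its ranges of 1042 to 1292 TPM with saline and 1045 to 1306 TPM with ConA overlapped (adjusted p = 0.889). Vtn had 2662 to 3006 TPM in WT saline, 3072 to 4800.5 in WT ConA, 2662 to 2968 in KO saline and 2625 to 2810.4 in KO ConA, and did not pass in WT (adjusted p = 0.0552) or KO mice (adjusted p = 0.763).

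Of the 3 regulators on the cell surface, Cd59a fell in both genotypes, with the deepest fall of a member in WT mice. CD59 binds C8 and C9 in the membrane and stops the pore from forming. Cd59a measured 46.4, 43.6 and 46.1 TPM in WT saline and 9.84, 10.7, 10.6 and 9.84 TPM in WT ConA. The KO values were 60.02, 61.3 and 51.05 TPM with saline and 10.1, 9.35, 11.8 and 11.9 TPM with ConA, so that all 8 ConA livers lay below all 6 saline livers. This was a log2 fold change of -2.04 ± 0.12 (adjusted p = 1.8e-06) in WT and -2.31 ± 0.14 (adjusted p = 1.94e-07) in KO mice, a mean TPM 0.226 and 0.188 times that in saline. The ratio of Cd59a to C9 TPM was 0.273 to 0.29 in WT saline, 0.15 to 0.174 in WT ConA, 0.618 to 0.964 in KO saline and 0.21 to 0.431 in KO ConA. Cr1l, the rodent regulator Crry that limits C3 deposition, rose in KO mice from 33.4–35.8 to 46.5–52.4 TPM (log2 fold change 0.52 ± 0.11, adjusted p = 0.00164). In WT mice it had 36.8 to 37.3 TPM with saline and 32.9 to 51.7 TPM with ConA, with WT ConA replicate 3 alone below the saline mice (adjusted p = 0.207). Cd55, which speeds the decay of the convertases, had 0.54 to 1.42 TPM in WT saline, 0.41 to 2.1 in WT ConA, 1.04 to 2.41 in KO saline and 0.88 to 3.41 in KO ConA and passed in neither genotype.

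Of the 4 receptors, which leukocytes carry, the 3 tested rose in both genotypes. C5ar1 encodes the receptor for C5a, which draws neutrophils to a site. It measured 0.27, 0.3 and 0.4 TPM in WT saline, 4.38, 2.89, 2.57 and 3.34 TPM in WT ConA, 0.33, 0.1 and 0.34 TPM in KO saline and 5.15, 4.09, 3.47 and 1.69 TPM in KO ConA. The log2 fold change was 1.68 ± 0.16 (adjusted p = 3.39e-05) in WT and 1.82 ± 0.25 (adjusted p = 8.76e-05) in KO mice. Itgam and Itgb2 encode the 2 chains of complement receptor 3, which binds C3 fragments. Itgam had 0.09 to 0.23 TPM in WT saline, 1.21 to 2.6 in WT ConA, 0.07 to 0.55 in KO saline and 1.78 to 4.5 in KO ConA, a log2 fold change of 1.40 ± 0.18 (adjusted p = 0.000185) in WT and 1.52 ± 0.24 (adjusted p = 0.000197) in KO mice. Itgb2 rose from 1.11–2.04 to 2.66–3.71 TPM in WT (adjusted p = 0.00642) and from 0.67–1.77 to 2.31–6.62 TPM in KO mice (adjusted p = 0.00193). C3ar1, the receptor for C3a, never exceeded 0.44 TPM and was not tested. C5ar1 and Itgam reached the TPM filter only through the ConA libraries, and therefore had to differ between the groups. For Itgb2 in KO mice too few saline libraries (1.77, 0.67 and 1.23 TPM) had a TPM of 1 to pass the filter alone. Its rise in KO mice was thus favoured in advance.

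Neutrophil and monocyte markers rose in the same libraries. The 10 neutrophil markers summed to 9.61 to 11.8 TPM in WT saline, 329 to 582 in WT ConA, 5.44 to 10.98 in KO saline and 429 to 990.5 in KO ConA. In each genotype 9 of the 10 rose, against 22.0% of all genes tested in WT and 33.9% in KO mice. S100a8, the most abundant of the 10 with S100a9, went from 1.64–4.23 to 134–253 TPM in WT mice. In KO saline 1 of the 10 was listed at 0 in every library and 5 were under 1 TPM in every library, and 5 were under 1 TPM in every WT saline library. All 10 were tested in each genotype. Those under 1 TPM with saline passed the filter only through the ConA libraries, so their rises were favoured in advance. The 6 monocyte markers summed to 8.04 to 17.3 TPM in WT saline and 37.5 to 72.6 in WT ConA. In KO mice they summed to 15.03 to 15.8 TPM with saline and 35.4 to 107.6 with ConA. All 4 tested rose in WT and all 3 tested in KO mice. In each genotype 5 of the 6 were under 1 TPM in every saline library, so most of these rises were favoured in advance. The part of either list in the receptors' rise was not tested.

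**Figure D3:**
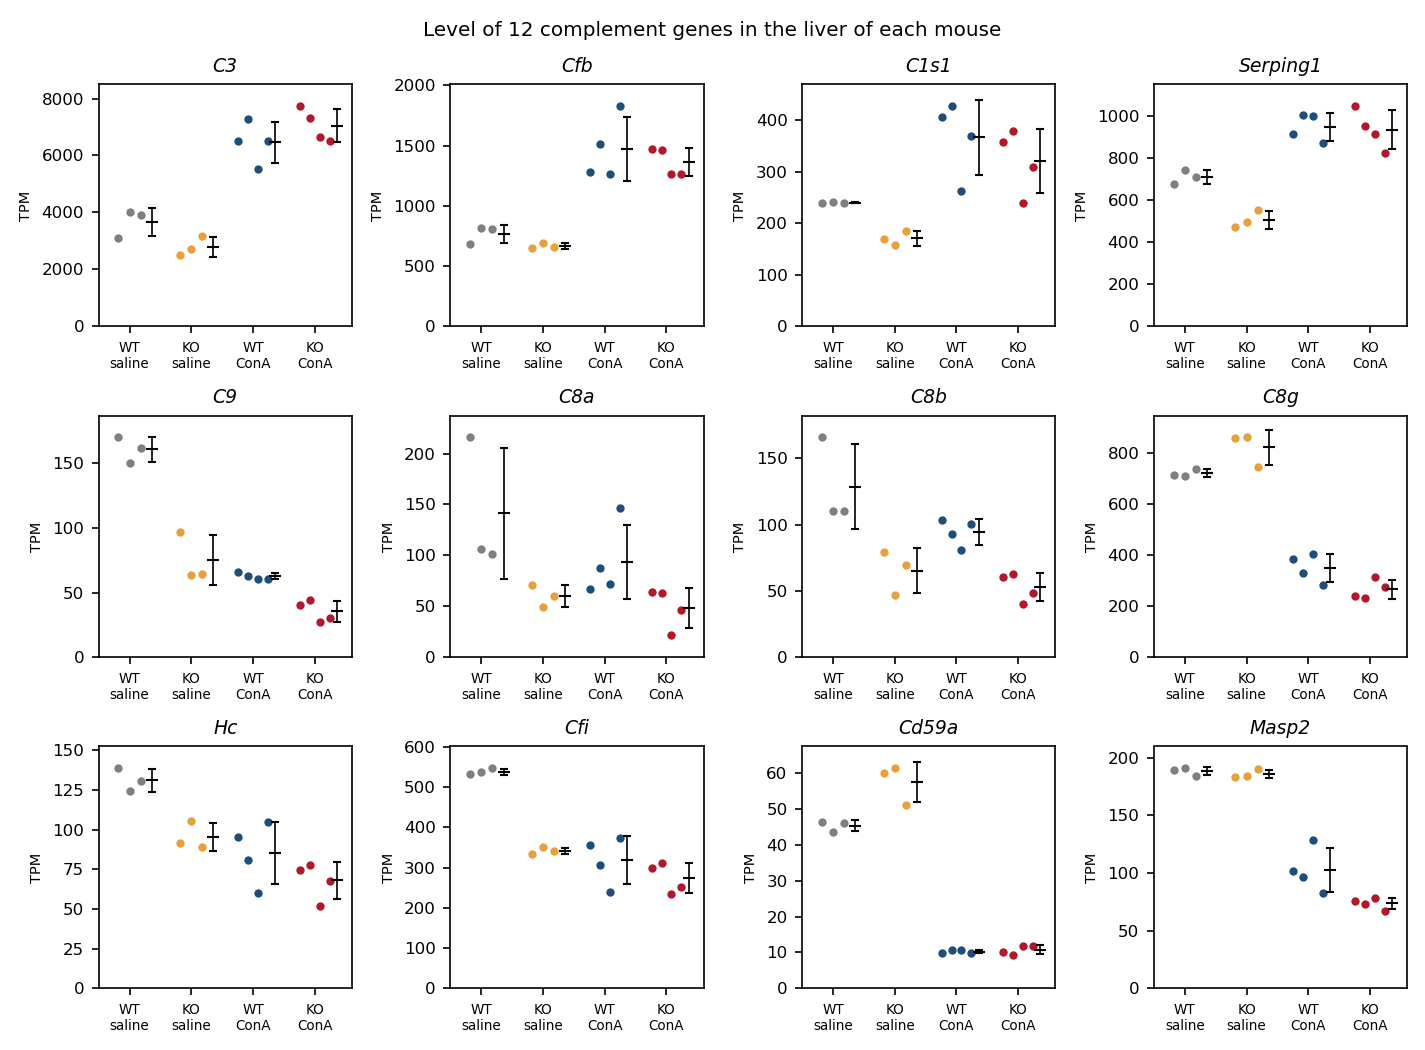
TPM (vertical axes, each from 0) of 12 members in each liver, with 1 point per mouse in the order of the replicate numbers and the mean ± SD beside each group. C3 and Cfb lie higher in every ConA mouse, C8g, Cd59a and Masp2 lie lower in every ConA mouse, and C9, C8a and C8b lie lower in every KO saline mouse than in any WT saline mouse.

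The comparison of KO with WT mice given saline asks whether loss of Ythdf1 alters the genes before any challenge. Of 30 members tested, 11 were lower in KO saline and 0 were higher, against 12.9% lower and 6.30% higher of all 10459 genes tested (19.2% in all). The median log2 fold change of the members was -0.22, beside -0.10 for all genes. All 11 calls were lost when WT saline replicates 2 and 3 were averaged as 1 mouse, where 0 of 30 members and 0.459% of 10675 genes passed (0.272% higher and 0.187% lower). Averaging also leaves 2 WT saline values, and the median log2 fold change of the members was then -0.25. With libraries rescaled, 8 were lower and 1, Colec11, was higher, while 1515 of 10418 genes passed. Without WT saline replicate 2 or without WT saline replicate 3 the count was likewise 0, without KO saline replicate 1 it was 3 and without KO saline replicate 2 it was 6. Without WT saline replicate 1 it was 14, with Fcna, Colec10, Colec11 and Cd55 higher and 10 members lower, and without KO saline replicate 3 it was 13, with Cd59a higher. Calls over all genes moved with these counts. In the same order they were 51 of 10686, 45 of 10664, 286 of 10577, 640 of 10663, 2234 of 10634 and 2739 of 10586. With all mice 2009 of 10459 genes passed. Without WT saline replicate 1, Colec10 and Cd55 passed the TPM filter only through the KO saline libraries, so their higher calls were favoured in advance. Of the 30, 18 had an unadjusted p under 0.05 in the fit of all 6 libraries, against 38.8% of all genes.

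The largest of these 11 values were in the terminal pathway. C9 had a log2 fold change of -1.12 ± 0.17 (adjusted p = 0.0138, 0.0773 with the pair averaged). C8a had -1.14 ± 0.29 (adjusted p = 0.0354, 0.0942 with the pair averaged), with WT saline replicate 1 at 216 TPM far above the other WT mice. C8b had -0.97 ± 0.23 (adjusted p = 0.0317, 0.1 averaged). Each of the 3 had a mean in KO saline of 0.426 to 0.508 times that in WT saline, and no KO saline mouse reached a WT saline mouse. C8g went the other way, at 0.18 ± 0.09 (adjusted p = 0.191), and Hc had -0.46 ± 0.10 (adjusted p = 0.0252, 0.101 averaged). C6 had -1.25 ± 0.43 (adjusted p = 0.0776) at a few TPM.

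In the classical pathway C1ra had a log2 fold change of -0.69 ± 0.14 (adjusted p = 0.0213), C1s1 -0.49 ± 0.09 (adjusted p = 0.0193), C2 -0.42 ± 0.12 (adjusted p = 0.0456) and C4b -0.42 ± 0.10 (adjusted p = 0.0318). C1rl had -0.03 ± 0.11 (adjusted p = 0.85). Among the fluid-phase regulators, Cfi had -0.65 ± 0.08 (adjusted p = 0.00743), C4bp -0.65 ± 0.09 (adjusted p = 0.0114) and Serping1 -0.49 ± 0.10 (adjusted p = 0.0223). With the pair averaged, the adjusted p of these 7 ran from 0.0678 for Cfi to 0.135 for C2. In each of the 7, all KO saline mice lay below all WT saline mice, and the groups did not overlap for 16 of the 30 members, against 42.3% of all genes.

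The lectin genes gave a different picture. Colec11 had a log2 fold change of 1.54 ± 0.45 (adjusted p = 0.0523), with every KO saline mouse above every WT saline mouse, and Colec10 had 0.96 ± 0.33 (adjusted p = 0.0784) and Fcna 0.73 ± 0.32 (adjusted p = 0.133). The stellate marker sum was higher in every KO saline mouse (138 to 227 TPM) than in any WT saline mouse (29.5 to 117 TPM). So was the sum of 6 sinusoidal endothelial markers (32.3 to 55.3 against 21.05 to 28.4 TPM). The Kupffer marker sum was lower in every KO saline mouse (28.6 to 61.5 against 63.9 to 120.3 TPM). The part of these cell types was not tested. Mbl1, Mbl2, Masp1 and Masp2 had values of -0.001, -0.01, 0.14 and -0.02. C3 and Cfb had -0.39 ± 0.14 (adjusted p = 0.0867) and -0.20 ± 0.10 (adjusted p = 0.184), Cfp -0.24, Vtn -0.01 and Clu -0.54. Of the membrane regulators, Cd59a had 0.33 ± 0.10 (adjusted p = 0.0502), Cd55 0.59 and Cr1l -0.09, and none passed.

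**Figure D4:**
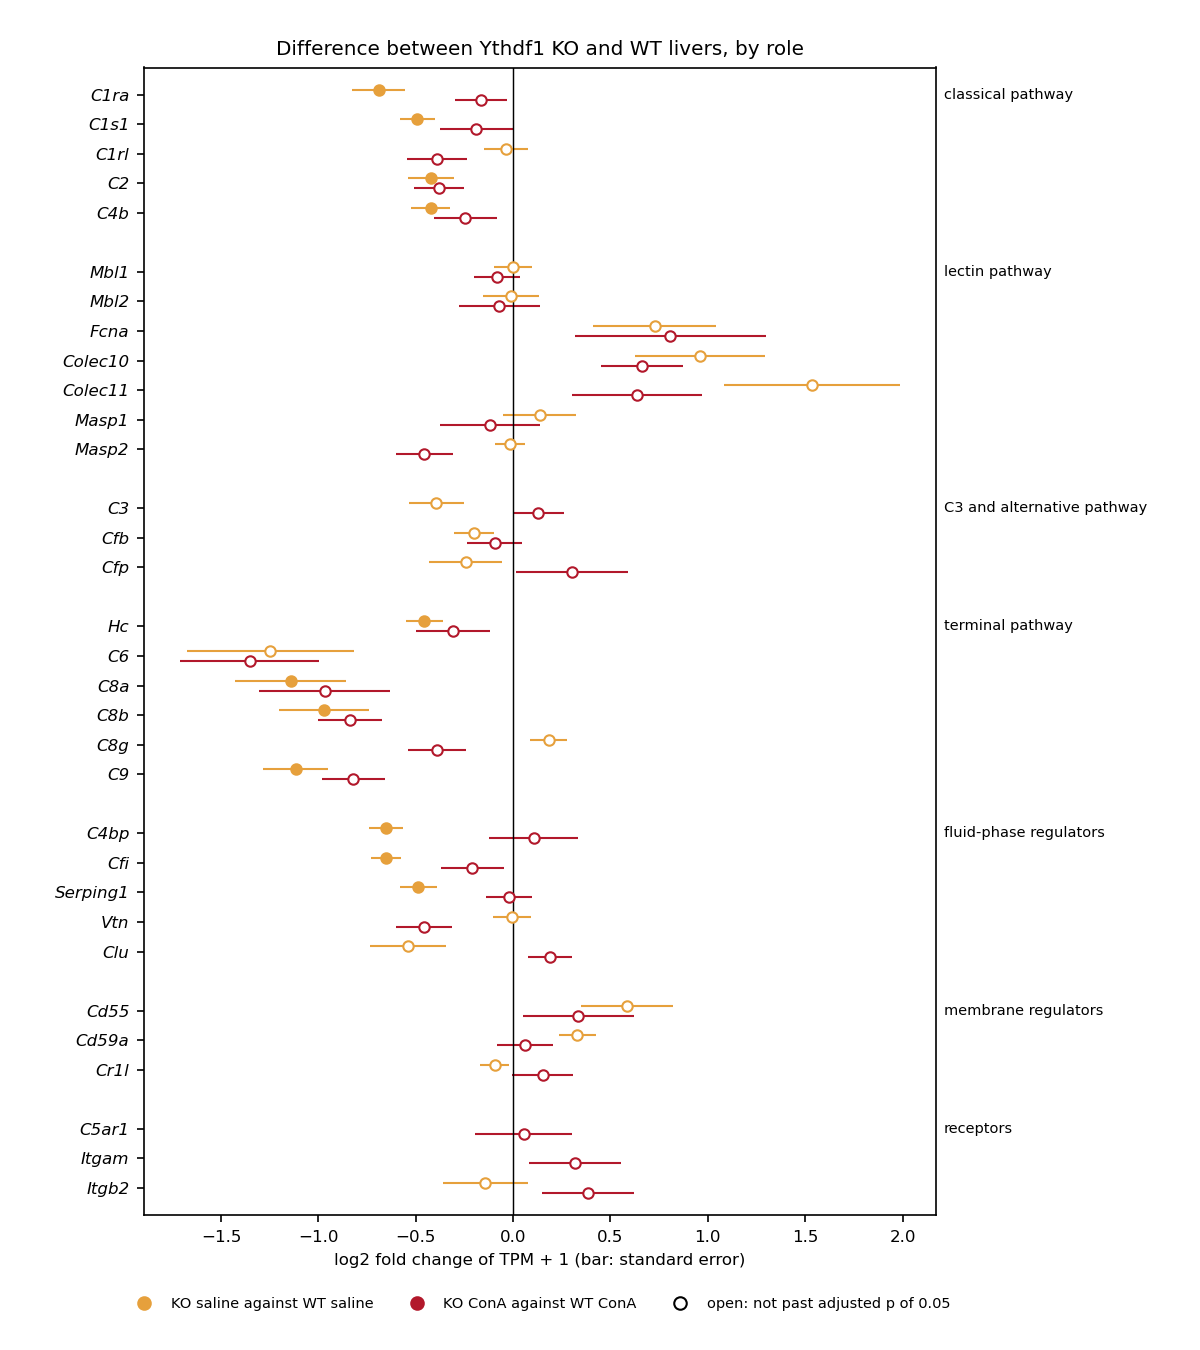
Log2 fold change of TPM + 1 between KO and WT mice (horizontal axis, bar for the standard error) for every tested member by role, with saline (orange) and after ConA (red), and filled points where the adjusted p was under 0.05 in the fit of all libraries of the groups compared. C6, C8a, C8b and C9 lie left of 0 with saline and after ConA, and no red point is filled.

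The comparison of KO with WT mice after ConA asks whether the livers differ during the hepatitis. Of 32 members tested, 0 passed in limma, against 0.428% of 10519 genes (0.342% higher and 0.0856% lower), and 10 had an unadjusted p under 0.05, against 16.7% of all genes. The median log2 fold change of the members was -0.09, beside 0.05 for all genes tested. The lowest adjusted p values were in the terminal pathway, in mice other than those of the saline comparison. C8b had a log2 fold change of -0.84 ± 0.16 (adjusted p = 0.0606) and C9 of -0.82 ± 0.16 (adjusted p = 0.0616), and for each all 4 KO ConA mice lay below all 4 WT ConA mice. C8b and C9 were also the members that passed with libraries rescaled, at adjusted p = 0.0261 and 0.0354. C8a had -0.97 ± 0.34 (adjusted p = 0.19) and C6 -1.35 ± 0.36 (adjusted p = 0.102), again without overlap, while C8g had -0.39 ± 0.15 (adjusted p = 0.223) and Hc -0.31 ± 0.19 (adjusted p = 0.463). The mean TPM in KO ConA was 0.561 times that in WT ConA for C8b, 0.57 for C9, 0.521 for C8a and 0.286 for C6. KO ConA replicate 3 was the lowest library for C8a, C8b and C9. With WT ConA replicate 3 and KO ConA replicate 3 both left out, the number of members that passed was again 0, against 32 of 10620 genes.

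The other members that did not overlap between KO ConA and WT ConA were C2, Masp2 and Vtn, which brought the number to 7 of 32, against 10.5% of all genes tested. C2 had a log2 fold change of -0.38 ± 0.13 (adjusted p = 0.172), Masp2 -0.46 ± 0.15 (adjusted p = 0.162) and Vtn -0.46 ± 0.14 (adjusted p = 0.155), all lower in KO. The members that rose after ConA gave smaller values. C3 had 0.13 ± 0.13, Cfb -0.10 ± 0.14, C1s1 -0.19 ± 0.19, C1ra -0.17 ± 0.13, C4b -0.24 ± 0.16, Serping1 -0.02 ± 0.12 and C4bp 0.11 ± 0.23. C5ar1 had 0.05 ± 0.25, Itgam 0.32 ± 0.24 and Itgb2 0.38 ± 0.24, while Colec11 had 0.64 ± 0.33, Fcna 0.81 ± 0.49, Colec10 0.66 ± 0.21 and Cd59a 0.06 ± 0.14, and the lowest adjusted p among these was 0.156, for Colec10. These p values do not show that the genotypes were alike.

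Whether ConA acted differently in the 2 genotypes was tested by the interaction over all 14 libraries. Of 32 members, 0 passed in limma, against 4.78% of 11327 genes (2.64% higher and 2.14% lower), and 9 had an unadjusted p under 0.05, near the 25.3% of all genes. With the WT saline pair averaged 0 members passed as well, against 0.243% of 11535 genes (0.165% higher and 0.0780% lower). Several members had passed in KO mice and not in WT mice, and this test did not separate their responses. Clu had an interaction of 0.73 ± 0.22 (adjusted p = 0.0639), Serping1 0.46 ± 0.15 (adjusted p = 0.0871), C8g -0.57 ± 0.19 (adjusted p = 0.0911), C3 0.52 ± 0.19 (adjusted p = 0.116), C1ra 0.53 ± 0.20 (adjusted p = 0.119) and C4bp 0.76 ± 0.30 (adjusted p = 0.132). A positive value means a larger rise, or a smaller fall, in KO mice. The terminal members C8a, C8b and C9 had 0.18 ± 0.51, 0.13 ± 0.29 and 0.30 ± 0.24. The median interaction of all genes tested was 0.14 on the deposited scale and 0.03 with libraries rescaled, and the median over the members was 0.13 and 0.0032.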

How the data were processed

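Liver RNA of 14 mice was sequenced as single-end 50-base reads on a BGISEQ-500. The authors deposited 1 table of TPM per mouse, each covering 17656 genes and summing to 1000000. The submitters' processing notes name Bowtie2, RSEM 1.3.1 and GRCm38.p6, while the study's methods name STAR, HTSeq and edgeR, and how the deposited TPM follow from the latter was not given in the sources used here. Counts behind the TPM were not analysed, so depth is unknown, no count test was run, and between 2230 and 2701 genes per library were listed at 0. Groups came from the sample titles. Per the labels the replicates of a group are separate biological samples.

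Tests used limma 3.58.1 in R 4.3.3 (lmFit, eBayes with a trend) on log2(TPM + 1), with a pseudocount of 1, over genes with TPM of at least 1 in as many libraries as the smaller group holds, using the libraries of the groups compared, or all 14 for the interaction. The call was a Benjamini-Hochberg adjusted p under 0.05. The scripts were tested on simulated data. For rescaling, the median over genes above 0 everywhere of a library's ratio to the geometric mean library served as its divisor, and the divisors ran from 0.791 to 1.19. Replicate numbers were not used to pair the samples, since in no comparison did every same-numbered pair correlate above 0.1. Single same-numbered pairs did, up to 0.405 for the replicates 3 of KO ConA and WT ConA. That rule cannot exclude a batch shared by some same-numbered mice, which was not tested.

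The members and the marker lists were chosen with earlier results of these data known. Every member is named. Values in every mouse are given for members that passed between genotypes and, in each role, for those that rose or fell most after ConA in both, with both genes where the genotypes ranked them differently, and Masp2 was added after its values were seen. Of a list of 29 other complement genes the 3 that changed most in WT mice are named. Gene places and promoters are those of RefSeq on GRCm38.p6. The share of 50-base stretches particular to a gene was computed on GENCODE M21 transcripts of GRCm38. Figures were drawn with matplotlib 3.10.9.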

Additional observations from a re-analysis of the deposited data

Results flagged for a closer look

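In WT ConA replicate 1, 3 genes stood apart from the other 3 mice of the group by the gap test for outlying samples. Colec11 was at 4.63 TPM there against 1.58 to 1.97 in the others, Vsig4 at 1.84 against 0.3 to 0.39 and Colec12 at 4.79 against 2.86 to 2.98. The same library had the highest summed Kupffer cell markers of its group (35.2 TPM against 7.01 to 8.97) and the highest summed stellate cell markers (133 TPM against 56.3 to 83.1), and their part in these values was not tested. The gap test was applied to 70 groups of 4 mice, of which it flagged 3, and chance alone flags about 1 in 20 groups.

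Colec12, a scavenger receptor of the collectin family outside the 34 members, differed between genotypes in its response to ConA. It went from 14.6, 17.5 and 17.8 to 4.79, 2.86, 2.98 and 2.9 TPM in WT mice and from 8.77, 8.94 and 10.97 to 3.74, 4.97, 3.89 and 5.36 TPM in KO mice. Its interaction was 1.08 ± 0.24 (limma, adjusted p = 0.031), or 0.104 when replicates 2 and 3 of WT saline counted as their mean.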

How the results depend on the processing

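After ConA, in every alternative tried, Colec11, Masp2, C8g, C9 and Cd59a fell and C3 and Cfb rose in both genotypes. In KO mice this also held for the rises of C1ra, C1s1, C4b, C4bp and Serping1. With a mouse left out, 12 to 21 members were called in WT and 20 to 22 in KO mice, against 17 and 23 with all mice. The number of members called between KO saline and WT saline was the least firm. It was 11, but 7 with no filter on low TPM, 5 with all 14 libraries in the fit, 17 with the replicate block (Fcna, Colec10, Colec11 and Cd55 higher), 0 with replicates 2 and 3 of WT saline averaged and 0 to 14 with a mouse left out. Over all genes the calls were 2009, and in the same order 958, 284, 2423, 49 and 45 to 2739. With the replicate block Colec10 and Cd55 needed the KO saline libraries to pass the TPM filter, so their higher calls were favoured in advance. Between KO ConA and WT ConA the number of members called was 0, but 2 with rescaled libraries (C8b and C9), 4 with all 14 libraries in the fit, 2 with the replicate block and 2 in the fit of all libraries with the WT saline pair averaged. Over all genes the calls were 45, and in the same order 25, 623, 140 and 440. For the interaction the number of members called was 0, but 0 to 1 with a mouse left out: Clu without KO saline replicate 3 and C8g without WT ConA replicate 4. Over all genes the interaction calls were 541, and 529 and 766 without these mice in turn. The replicate block gave 17 members in WT mice (15 shared with the 17 called without it), 21 in KO mice and 0 for the interaction. Over all genes it gave 5065, 6544 and 358 calls. By the labels same-numbered mice shared a number only, and their deviations correlated at 0.342, 0.229 and -0.0022 between KO saline and WT saline and at -0.0071, 0.129, 0.405 and 0.115 between KO ConA and WT ConA. For these results the cause was not tested.

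Reversals of sign concerned values that had not passed. With rescaled libraries they were Masp2 between KO saline and WT saline (0.0436), Cd59a (-0.00827) and C5ar1 (-0.00912) between KO ConA and WT ConA, and the interactions of C2 (-0.0933), Cfb (-0.0325) and C8b (-0.00375). With both ConA replicates 3 left out, an alternative chosen after seeing the data, they were C4bp (-7.73e-06), Serping1 (0.0118) and C5ar1 (-0.0364) between KO ConA and WT ConA. With a mouse left out, the log2 fold change between KO ConA and WT ConA ran from -0.127 to 0.232 for C4bp, -0.0785 to 0.0357 for Serping1, -0.162 to 0.0137 for Cfb and -0.107 to 0.291 for C5ar1. The interaction ran from -0.0435 to 0.16 for C2, -0.173 to 0.508 for C8a, -0.0876 to 0.291 for C8b, -0.00817 to 0.268 for Hc and -0.0275 to 0.37 for C5ar1. The read depth behind the TPM is unknown, which limits what can be said of Cfd, C3ar1, Cd55, C5ar1 and Itgam near 0.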

Other observations

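Beyond the 34 members, 29 other genes of complement or its immediate partners were listed, of which 19 passed the TPM filter in WT mice. After ConA 4 of them rose and 12 fell in WT mice, beside 22.0% higher and 31.0% lower of all genes. In KO mice 4 rose and 9 fell of 17 tested, beside 33.9% higher and 30.7% lower of all genes. With the WT saline pair averaged 15 passed in WT mice, beside 42.1% of 10985 genes. Cd93 in both genotypes and C4a in WT mice reached the TPM filter only through the ConA libraries. Susd4 in WT mice reached it only through the saline libraries. Their directions were thus favoured in advance, as were those of Vsig4 and Cd59b described below. The largest rise in both genotypes was that of Apcs, encoding serum amyloid P, a pentraxin and a classical acute phase protein of the mouse, which measured 444, 201 and 208 TPM in WT saline and 1469.6, 1982, 1576 and 2192 TPM in WT ConA. In KO mice it measured 214, 249 and 178 TPM with saline and 1699, 2117, 1230.1 and 1278 TPM with ConA. On the log2 scale the change was 2.75 ± 0.28 (limma, adjusted p = 4.31e-05) in WT and 2.86 ± 0.20 (adjusted p = 5.21e-07) in KO mice, larger than that of any of the 34 members in either direction.

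The deepest fall in WT mice was that of Vsig4, the complement receptor of tissue macrophages, with 12.3, 9.4 and 9.52 TPM in WT saline and 1.84, 0.39, 0.3 and 0.34 TPM in WT ConA. In KO mice it had 10.1, 4.09 and 7.49 TPM with saline and 1.21, 0.81, 1.29 and 0.28 TPM with ConA. This was a log2 fold change of -2.81 ± 0.27 (adjusted p = 3.61e-05) in WT and -2.08 ± 0.28 (adjusted p = 7.23e-05) in KO mice, where Cd59b, named after its values were seen, fell by 2.16 on the log2 scale. Too few ConA libraries had a TPM of 1 to pass the filter alone, for Vsig4 in either genotype and for Cd59b in KO mice. These genes passed it only through the saline libraries, so their falls were favoured in advance. Colec12 fell by 2.03 in WT and by 0.95 in KO mice on the log2 scale. The sum of the Kupffer cell markers was lower in every ConA library than in any saline library of the same genotype, and its part was not tested.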
